A study of Mus musculus with 10 samples.

Results

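The nuclear pore and nuclear transport genes comprised 55 of the 18193 genes that the Affymetrix MOE430_2 array measured with at least 1 probe set assigned to a single gene symbol. They were chosen by a symbol rule that used no measured value but was set with earlier results of these data known. The rule took in the numbered nucleoporins (Nup), the Nupl genes, and the numbered importins (Ipo), karyopherin alphas (Kpna) and transportins (Tnpo). It also took in the numbered exportins (Xpo) and Ran-binding proteins (Ranbp), together with Kpnb1, Ran, Rangap1, Rcc1 and Cse1l. The 55 genes had 143 probe sets, and each gene was represented by its brightest probe set (highest mean of the log2 signals). Natural killer (NK) cells, cytotoxic lymphocytes of innate immunity, were sorted from spleens of wild type C57Bl/6 mice as NK1.1+CD3- cells at over 99% purity and were lysed either at once (resting NK, 3 arrays) or after stimulation with 100 ng/mL of recombinant mouse IL-15, a cytokine that sustains and activates NK cells, for 24 h (IL-15 NK, 3 arrays). Unsorted resting mouse splenocytes were the comparison tissue (4 arrays from 2 biological samples with 2 chips each), and the labels give neither their strain nor which chips belong together. The labels give no ages and do not say whether an array held cells of 1 animal or of a pool. NK cells kept for 24 h without IL-15 were not analysed here, so the effect of IL-15 and that of the culture itself cannot be told apart. NK RNA was amplified over 2 cycles and splenocyte RNA over 1 cycle, so amplification and cell source cannot be told apart in the comparisons with splenocytes.

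The nuclear pore is a channel through the nuclear envelope, built from many copies of the nucleoporins. Its scaffold consists of outer rings made of the Y-shaped complex and of an inner ring, which anchor the disordered proteins that fill the central channel, while other nucleoporins form filaments on the cytoplasmic face and a basket on the nuclear face. Soluble receptors, the importins and exportins, carry proteins and RNAs through the channel, and the small GTPase Ran gives them direction: Rcc1 loads Ran with GTP in the nucleus, and Rangap1 with Ranbp1 and Ranbp2 stimulates hydrolysis in the cytoplasm. In lymphocytes this traffic carries histones, ribosomal proteins, transcription factors and messenger RNA as resting cells enlarge and start to divide.

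All 10 arrays had the same trimmed mean signal of 1500.01, and a floor was set at a signal of 179.85, under which values were treated as equal. Of the 55 genes, 51 lay above the floor on every array, and Kpna7 and Nup210l were too dim to be tested in any comparison. Ranbp17 was above the floor on too few arrays to be tested against splenocytes. The share of probe sets above the floor ranged from 57.8% to 61.7% in resting NK cells, from 51.1% to 56.5% after IL-15 and from 61.2% to 62.4% in splenocytes. The signal ratio of the 3' to the 5' probe set of Gapdh, a sign of how complete the amplified RNA was, was between 5.88 and 9.54 for resting NK cells, between 2.90 and 3.81 for IL-15 NK cells and at most 1.39 for splenocytes. The summed signal of 8 NK markers was 870% to 1087% of its splenocyte mean in resting NK cells and 740% to 881% after IL-15, and all 8 were higher in resting NK cells than in splenocytes. Of 12 B cell markers 11 were on the array, and their summed signal was 9.01%, 9.64% and 1.44% of the splenocyte mean on the 3 resting NK arrays against 0.451% to 0.625% on the IL-15 NK arrays. For the macrophage markers (11 symbols listed, 10 on the array) the ranges were 2.99% to 13.3% and 0.574% to 0.912%. For 8 T cell markers they were 11.1% to 24.4% and 8.08% to 9.64%, and no erythroid marker was above the floor on an NK array. Most of the T cell sum on NK arrays came from Cd28, which did not pass between resting NK cells and splenocytes, and the other 7 summed to 1.48% to 4.47% of their splenocyte mean in resting NK cells and 1.23% to 2.47% after IL-15. Cd4 was under the floor on every NK array. These marker levels and 3' to 5' ratios moved with the IL-15 comparison, and their part in the results was not tested. In bulk RNA, fewer cells of a type and less RNA per cell cannot be told apart.

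After 24 h with IL-15, 8 of the 10 genes of the pore scaffold, 3 of the 5 tested importin alphas, 6 of the 12 genes of the importin beta family, 3 of the 7 exportins and 2 of the 6 genes of the Ran cycle rose. Of the 53 genes tested, 23 rose, 1 fell (Ranbp10) and 29 did not pass, with limma and Benjamini-Hochberg adjustment over all 11433 genes tested at a threshold of 0.05. Over all genes tested 26.3% passed, 14.2% as higher and 12.1% as lower. The median log2 difference of the 53 genes was 0.56, a 1.48-fold higher signal in IL-15 NK cells, against -0.09 over all genes tested. At least 2-fold higher signals were seen for 16 of the 53 genes, and 42 of 53 differences were positive. On 27 genes all 3 IL-15 arrays lay above all 3 resting arrays, which was the case for 20.5% of all genes tested, and on 3 genes (Ranbp10, Kpna6 and Nup210) all lay below, against 21.6% of all genes. Of the 23 genes that rose, 11 passed under every one of 16 alternative settings: Rcc1, Ranbp1, Kpna2, Ipo4, Ipo5, Cse1l, Nup37, Nup43, Nup85, Nup93 and Nup107. Without IL-15 NK replicate 1, 15 genes passed, all as higher: Ipo9, Ipo11, Kpna1, Kpna3, Nup54, Nup133, Xpo1 and Xpo5 no longer did, nor did Ranbp10.

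**Figure D1:**
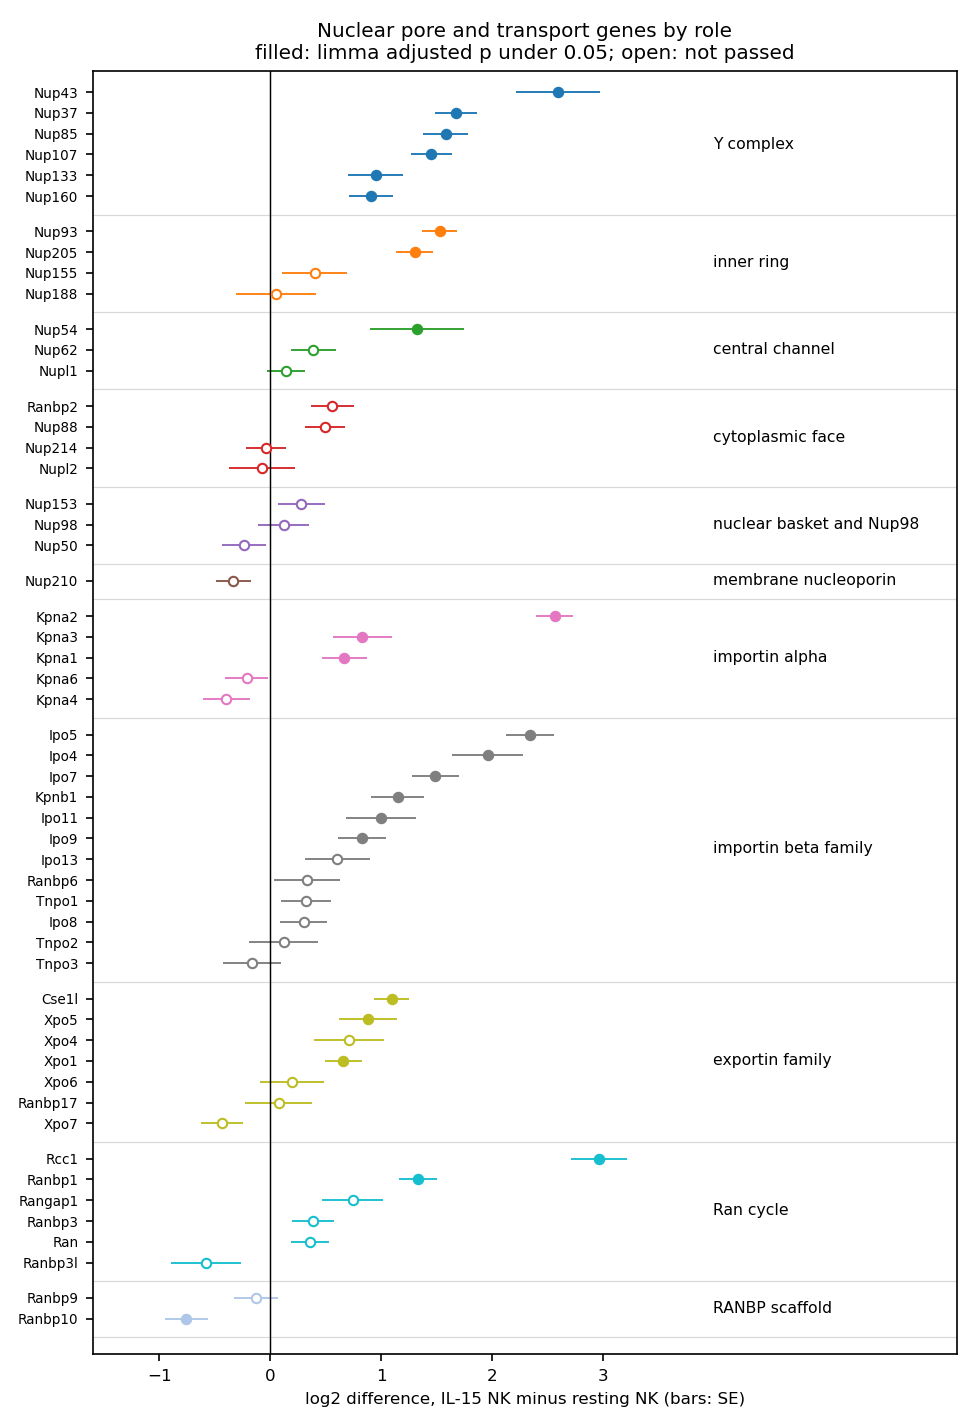
Log2 difference of IL-15 NK minus resting NK (3 arrays each) for the 53 tested genes, grouped by role; bars are the standard error from limma, filled points passed an adjusted p of 0.05 and open points did not. All 6 Y complex genes among the 53 passed as higher, none of the cytoplasmic face, basket or membrane nucleoporins passed, and Ranbp10 is the 1 gene that fell.

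The Ran cycle held the gene with the largest difference of all members in the main analysis. Rcc1, the chromatin-bound exchange factor that loads Ran with GTP, had signals of 331.5, 355.7 and 339.6 in resting NK, 2436, 2523.5 and 3119 in IL-15 NK and 700.9, 946.2, 870.5 and 1343 in splenocytes. The 3 groups did not overlap: resting NK cells were lowest, splenocytes intermediate and IL-15 NK cells highest. The rise after IL-15 was 7.82-fold (log2 difference 2.97 ± 0.26, SE, adjusted p = 4.9e-05). Ranbp1, which helps Rangap1 to release Ran from its receptors, had signals of 6899, 6851 and 5835 at rest and 17142, 17611 and 14615 after IL-15 and rose 2.52-fold (log2 difference 1.33 ± 0.17, SE, adjusted p = 0.00042). Its IL-15 signals fell within the splenocyte range of 12357.5 to 19155.5. Rangap1, the GTPase-activating protein, had signals of 2087, 1296.5 and 2444 against 2981, 2765 and 3776.5, which did not overlap, yet its log2 difference of 0.74 ± 0.27 (SE, adjusted p = 0.071) did not pass. Ran itself was measured at 49920.1, 60377 and 53685 at rest and 78398, 65894 and 66045.5 after IL-15. These ranges did not overlap either, and the log2 difference of 0.36 ± 0.17 (SE, adjusted p = 0.16) did not pass. Ranbp3, a cofactor of Xpo1 in export, had a log2 difference of 0.38 (adjusted p = 0.17), and its dim relative Ranbp3l one of -0.58 (adjusted p = 0.21).

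**Figure D2:**
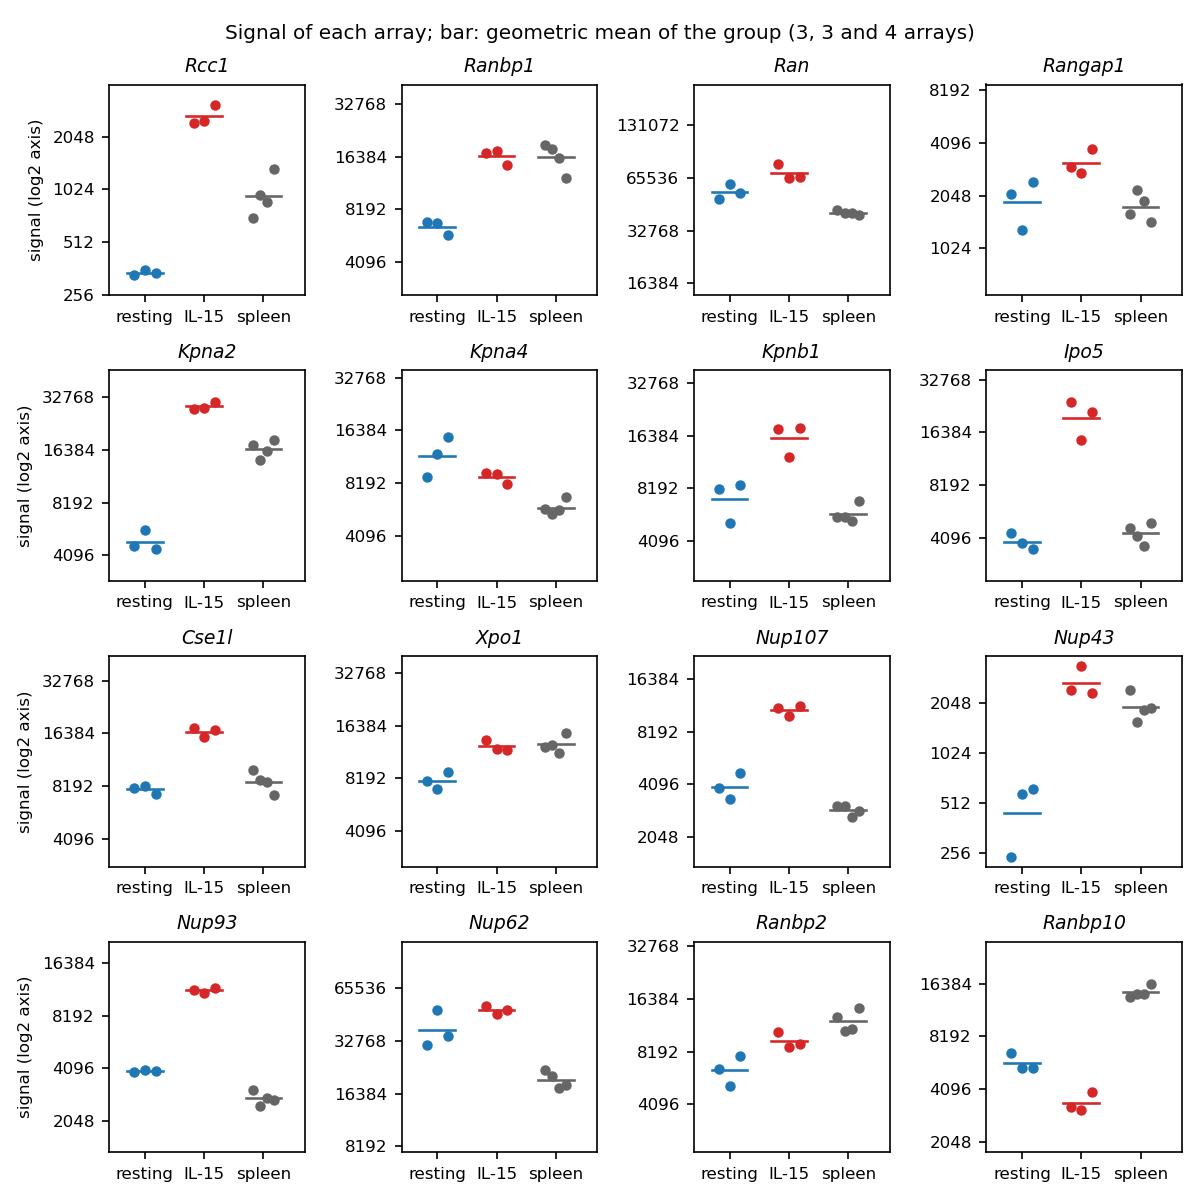
Signal of 16 genes on each array (points) with the geometric mean of each group (line) for resting NK (3 arrays), IL-15 NK (3 arrays) and splenocytes (4 chips); each panel has its own log2 axis. Rcc1, Kpna2, Ran, Nup107, Nup93, Ranbp2 and Ranbp10 separate all 3 groups. Ipo5, Nup107 and Nup93 are higher on the IL-15 arrays than in both other groups, and Ranbp10 is highest in splenocytes and lowest after IL-15.

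The importin alphas are the adapters that recognise classical nuclear localisation signals, and 3 of the 5 tested rose after IL-15 while none fell. Kpna2 had signals of 4644, 5731 and 4442 in resting NK, 27991, 28518 and 30815 in IL-15 NK and 17523, 14425, 16084 and 18778 in splenocytes, in 3 groups without overlap. Its rise after IL-15 was 5.93-fold (log2 difference 2.57 ± 0.17, SE, adjusted p = 1.5e-05). Kpna3 rose 1.78-fold (log2 difference 0.83 ± 0.26, SE, adjusted p = 0.041), from 7921, 5032.5 and 6521 to 15701, 7965 and 11706.5. Kpna1 rose 1.59-fold (log2 difference 0.67 ± 0.20, SE, adjusted p = 0.032), from 3739, 2805 and 3884 to 5902, 4925 and 5638. Both passed narrowly: Kpna1 passed under 8 and Kpna3 under 9 of the 16 alternative settings. Kpna4 and Kpna6 did not pass, with log2 differences of -0.40 ± 0.21 (SE, adjusted p = 0.20) and -0.21 ± 0.19 (SE, adjusted p = 0.46), and the resting and IL-15 signals of Kpna4 overlapped while those of Kpna6 did not.

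Kpnb1, the importin beta that carries importin alpha with its cargo, rose 2.22-fold (log2 difference 1.15 ± 0.24, SE, adjusted p = 0.0059), from 8169, 5199 and 8557 in resting to 17827, 12366 and 18098 in IL-15 NK cells. The groups did not overlap, and the second resting and the second IL-15 array were each the lowest of their group. Among its relatives, which bind cargo directly, 6 of 12 genes counting Kpnb1 rose and none fell. The median log2 difference of the 12 was 0.72. Ipo5, an importer of ribosomal proteins and histones, had 4337, 3823 and 3519.6 at rest, 24402, 14725 and 21293 after IL-15 and 4656.5, 4200.0, 3650.1 and 4983 in splenocytes. Splenocytes overlapped resting NK cells, and all 3 IL-15 arrays lay far above both, a rise of 5.08-fold over resting (log2 difference 2.34 ± 0.21, SE, adjusted p = 6.4e-05). Ipo4, a histone importer, rose 3.90-fold (log2 difference 1.96 ± 0.32, SE, adjusted p = 0.0016), from 943.3, 2099 and 905.9 to 4562.5, 4571 and 5097, and resting array 2 stood above the other resting arrays. Ipo7, another importer of ribosomal proteins and histones, rose 2.81-fold (log2 difference 1.49 ± 0.21, SE, adjusted p = 0.00077), from 4992, 5063 and 4684 to 17988, 10486 and 13914. Its splenocyte signals of 17093, 13366, 13758 and 16302 were within the IL-15 range. Ipo11 and Ipo9 also rose, by 2.00-fold and 1.77-fold (adjusted p = 0.040 and 0.018). Ipo13, Ranbp6, Tnpo1, Ipo8, Tnpo2 and Tnpo3 did not pass, with log2 differences from -0.17 (Tnpo3, the receptor of splicing factors rich in serine and arginine) to 0.60 (Ipo13).

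Among the exportins, 3 of 7 genes rose and none fell. The median log2 difference of the 7 was 0.66. Cse1l, the exportin that returns importin alpha to the cytoplasm, had signals of 7997, 8181.5 and 7374 at rest, 17699.6, 15637 and 17113 after IL-15 and 10107, 8875, 8694 and 7284 in splenocytes. Resting NK cells and splenocytes overlapped, all IL-15 arrays were higher, and the rise was 2.14-fold (log2 difference 1.10 ± 0.16, SE, adjusted p = 0.00087). Xpo5, which exports microRNA precursors, rose 1.84-fold (log2 difference 0.88 ± 0.26, SE, adjusted p = 0.030), from 1067, 724.3 and 864 to 1649, 1482 and 1713. Xpo1, the main exporter of proteins with leucine-rich signals, rose 1.58-fold (log2 difference 0.66 ± 0.17, SE, adjusted p = 0.016), from 7875, 7105 and 8857 to 13654.5, 12058.5 and 11906. In both cases the groups were apart. Xpo4, Xpo6, Xpo7 and the dim Ranbp17 did not pass, with log2 differences of 0.71, 0.20, -0.43 and 0.08.

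In the pore itself, all 6 Y complex genes that the symbol rule took in rose, with a median log2 difference of 1.52. Nup43 had 242.3, 583 and 623.8 at rest and 2435, 3422 and 2356 after IL-15, a 6.06-fold rise (log2 difference 2.60 ± 0.38, SE, adjusted p = 0.00093) with the first resting array far below the others. Nup37 had 2031, 2122 and 1962 against 7368, 6016 and 6255, a 3.20-fold rise (log2 difference 1.68 ± 0.19, SE, adjusted p = 0.00021). Nup85 had 1901, 2604 and 2728 against 7296, 6854 and 7267, a rise by 1.58 ± 0.20 (SE, adjusted p = 0.00042) on the log2 scale. In all 3 the IL-15 arrays lay above every resting array. Nup107, Nup133 and Nup160, further members of the Y complex, rose 2.74-fold, 1.94-fold and 1.87-fold (adjusted p = 0.00044, 0.017 and 0.0078). The mean over the 6 genes was 1.56, 1.55 and 1.47 log2 units above the resting mean on the 3 IL-15 arrays, while the resting arrays themselves ranged from -0.27 to 0.16. In the inner ring, Nup93 had 3883, 4028 and 3968 against 11439.8, 11108 and 11734.5 and rose 2.89-fold (log2 difference 1.53 ± 0.16, SE, adjusted p = 0.00015), and Nup205 had 5907, 5516 and 6628 against 16004, 14906 and 13628 and rose 2.47-fold (log2 difference 1.30 ± 0.17, SE, adjusted p = 0.00043). Signals within each group were close to each other for both genes, and the groups stood apart. Nup205 passed under 15 of the 16 alternative settings and did not pass with its second brightest probe set. The other inner ring genes, Nup155 and Nup188, did not pass (log2 differences 0.40 and 0.05).

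Of the 11 tested nucleoporins among the members that lie outside the scaffold, 1 rose on its brightest probe set, a share near the 14.2% of all genes tested. Other sets of Nup62 and Nupl1 passed as higher, and other sets of Nup153 and Ranbp2 as lower. Of pore components that the symbol rule left out, Ndc1, Aaas and Rae1 rose, and Pom121 and Gle1 did not pass. In the central channel, Nup54 rose 2.50-fold (log2 difference 1.32 ± 0.43, SE, adjusted p = 0.043), but its signals of 5644.5, 2833 and 10088 at rest and 19548, 8649.7 and 14965 after IL-15 overlapped. Nup54 was the 1 gene among the 23 that rose whose groups overlapped. Nup62 and Nupl1, which form the channel complex with it, did not pass on their brightest probe sets, with log2 differences of 0.39 and 0.14. On the cytoplasmic face, Ranbp2, the large filament protein that binds Ran, had 6506, 5184 and 7708.5 against 10581, 8693 and 9087, which did not overlap, and a log2 difference of 0.56 ± 0.20 (SE, adjusted p = 0.059) that did not pass. Nup88, Nup214 and Nupl2 did not pass (log2 differences 0.49, -0.04 and -0.07), and neither did Nup153, Nup98 and Nup50 of the basket and nuclear side (0.28, 0.12 and -0.24) or the membrane nucleoporin Nup210 (-0.33). Ranbp9 and Ranbp10 are scaffold proteins of a ubiquitin ligase complex and carry their name for Ran binding rather than for a role in transport. Ranbp10 had 6569, 5411 and 5394 in resting against 3241, 3094 and 3962.5 in IL-15 NK cells, without overlap, and fell by 0.76 on the log2 scale (SE 0.19, adjusted p = 0.016). Ranbp9 did not pass (log2 difference -0.13).

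**Figure D3:**
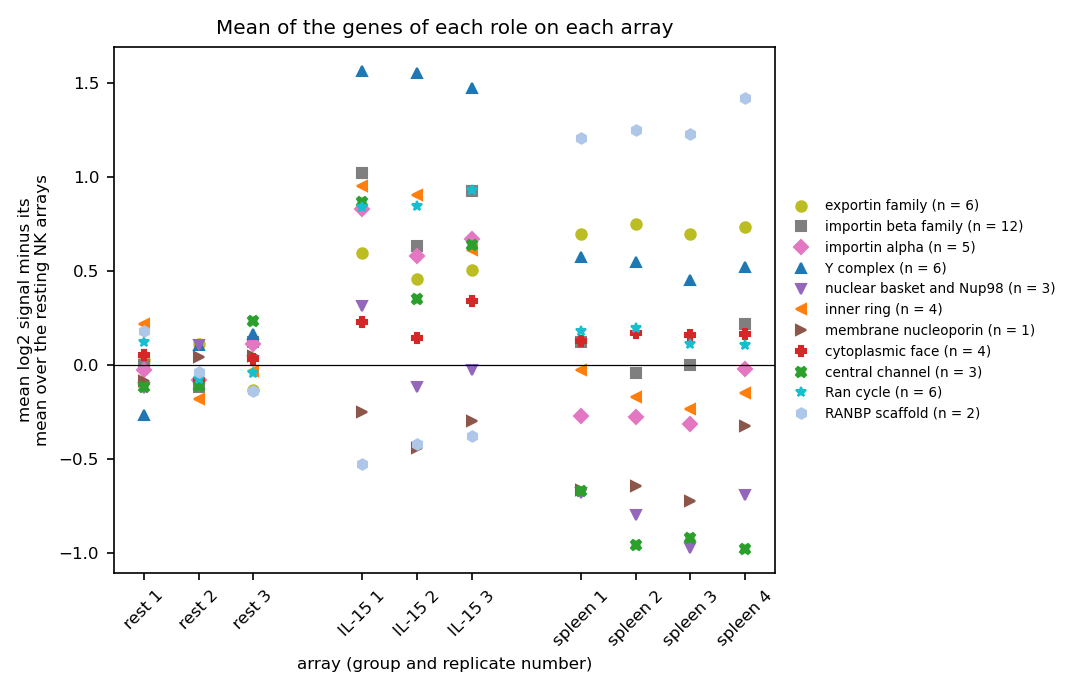
Mean log2 signal of the genes of each role on each array, minus its mean over the 3 resting NK arrays (n is the number of genes in all 3 tests). The Y complex lies between 1.47 and 1.56 on the 3 IL-15 arrays, the RANBP scaffold genes lie below 0 there, and both lie above 0 on all 4 splenocyte chips. Of the 6 Y complex genes, 2 passed as lower in resting NK cells than in splenocytes and 4 did not pass.

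The choice of probe set mattered for several genes that did not pass. Tested singly, 52 of the 124 tested probe sets of these genes passed as higher and 3 as lower, against 12.2% and 11.6% of all 20980 tested probe sets. Of the 29 genes whose brightest probe set did not pass, 9 had another set that passed as higher: Ran, Rangap1, Nup62, Nupl1, Nup155, Tnpo1, Tnpo3, Kpna6 and Xpo7. For Ran, the 4 brightest sets, all of the _x_at kind that can also match other transcripts, had log2 differences of 0.24 to 0.40, and a dimmer set had 1.95 ± 0.22 (SE, adjusted p = 0.00022 over all probe sets). For Nup62, the brightest set is also of the _x_at kind, and its 4 dimmer sets each passed, with log2 differences of 0.88 to 1.51. Xpo7 had a negative difference on its brightest set and 1.03 ± 0.25 (SE, adjusted p = 0.013) on another set. Values for Ran, Nup62 and Xpo7 are therefore uncertain. Other sets of Nup153 (log2 difference -0.77) and Ranbp2 (-1.70) passed as lower while their brightest sets had positive differences. Among the 23 genes that rose, 15 had another tested set, none of which passed as lower, and in Ipo7, Ipo11, Nup54 and Nup133 at least 1 other set had a negative difference.

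**Figure D4:**
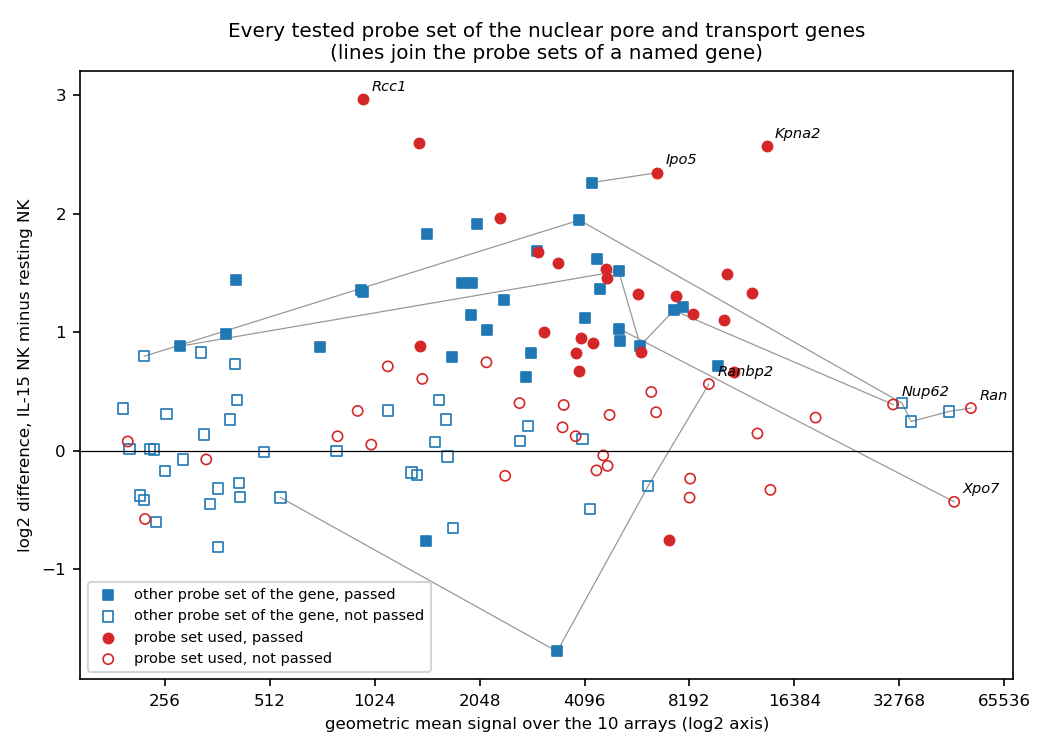
Log2 difference of IL-15 NK minus resting NK for every tested probe set of the nuclear pore and transport genes against its geometric mean signal over the 10 arrays; circles are the sets used for a gene, squares its other sets, filled where the adjusted p over all probe sets was under 0.05, and lines join the sets of Ran, Nup62, Xpo7, Ranbp2 and Ipo5. The brightest sets of Ran, Nup62 and Xpo7 lie near 0 while dimmer sets of the same genes reach 1.95, 1.51 and 1.03.

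Promoter sequences are shown for 3 genes that rose and for Ran, as examples of 2 of the motifs searched. Most of the members' windows held neither of these 2 motifs, and Ran did not pass after IL-15 on its brightest probe set. RefSeq (GRCm38.p6) windows from 250 bases before to 50 bases after the start site were at hand for 44 of the 55 genes, 51 windows in all. Capitals mark the motif, which is GCATGCGC or its reverse complement (the core recognised by NRF1, a factor of housekeeping promoters) in the first 3 lines and CACGTG (the E-box of the MYC and USF families) in the last.
Nup107, chr10:117792723-117792810, minus strand: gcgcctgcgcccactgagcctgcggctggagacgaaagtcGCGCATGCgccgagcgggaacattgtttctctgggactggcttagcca
Ranbp1, chr16:18248786-18248873, minus strand: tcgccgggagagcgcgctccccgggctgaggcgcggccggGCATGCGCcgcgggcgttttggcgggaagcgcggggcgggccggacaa
Ran, chr5:129019911-129019998, plus strand: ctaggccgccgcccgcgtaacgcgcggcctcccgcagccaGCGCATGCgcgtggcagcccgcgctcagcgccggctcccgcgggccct
Nup93, chr8:94214349-94214434, plus strand: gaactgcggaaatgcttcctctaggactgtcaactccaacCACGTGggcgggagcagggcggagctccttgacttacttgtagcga
Searched on both strands, the NRF1 core lay in 8 of the 51 windows (15.7%; Nup107, Nup50, Nup62, Nupl1, Ran, Ranbp1, Rcc1 and Xpo5), against 2.71% of all 32851 promoter windows. It lay in 18.2% of the 22 windows of genes that rose and in 13.8% of the 29 windows of the other genes. CACGTG lay in 15.7% of the members' windows and 7.15% of all windows. The ETS core CCGGAAG lay in 15.7% against 8.86%, the E2F core TTTCCCGC in 3.92% against 1.07% and CCAAT in 47.1% against 37.4%. The STAT5 motif TTCNNNGAA lay in 1 window (1.96%, Nup107) against 8.30% of all windows. The members' windows had a median GC content of 64.0% against 52.7% over all windows, and the motifs rich in G and C were not adjusted for this. These matches describe letters in the windows and no binding was measured.

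Further genes of the same pathway were counted from 3 lists of pore components, transport accessory factors and mRNA export factors that the symbol rule did not take in. Of their 34 genes, all tested, 14 rose and none fell after IL-15 (median log2 difference 0.59), where 14.2% of all genes tested rose and 12.1% fell. Among other pore components, 5 of 8 rose, led by Ndc1, a membrane anchor of the pore, at 3.54-fold (log2 difference 1.82 ± 0.36, SE, adjusted p = 0.0043), and Aaas at 2.43-fold (adjusted p = 0.0020). Seh1l, Sec13 and Ahctf1 also belong to the Y complex or bind it. Seh1l and Sec13 rose, with log2 differences of 0.75 and 0.93. Ahctf1 had -0.49 and did not pass, although its IL-15 signals lay below its resting signals without overlap. Among accessory factors, 4 of 10 rose, led by Xpot, the tRNA exportin, at 2.62-fold (adjusted p = 0.00062), and Hikeshi, the importer of heat shock protein, at 2.27-fold (adjusted p = 0.0082). Of the mRNA export factors, 5 of 16 rose. Alyref, the adapter that marks messenger RNA for export, had 1503, 945 and 1361 at rest and 8904, 10655.5 and 13311 after IL-15 against 2767, 2670.0, 2165 and 2354.5 in splenocytes. All IL-15 signals lay far above both other groups, and the rise over resting was 8.68-fold (log2 difference 3.12 ± 0.24, SE, adjusted p = 3.0e-05). Ddx39b, the helicase partner of Alyref, rose 2.32-fold (adjusted p = 0.0049).

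Set against splenocytes, resting NK cells were lower for some transport genes and higher for others. Of 52 genes tested, 13 were higher, 13 lower and 26 did not pass. Over all 12938 genes tested 38.6% passed, 17.1% as higher and 21.5% as lower. The median log2 difference was -0.01, against -0.06 over all genes. The lowest in resting NK cells relative to splenocytes were Nup43 at 4.31-fold lower (log2 difference -2.11 ± 0.42, SE, adjusted p = 0.0048), Kpna2 at 3.39-fold lower (log2 difference -1.76 ± 0.16, SE, adjusted p = 7.6e-05) and Ipo7 at 3.06-fold lower (log2 difference -1.62 ± 0.22, SE, adjusted p = 0.00068). Rcc1, Xpo4, Ranbp10, Nup160, Ranbp1, Ranbp9, Tnpo2, Xpo5, Ranbp2 and Xpo1 were also lower, with log2 differences from -1.46 to -0.69. The highest were Nup50, a basket protein, at 2.96-fold (log2 difference 1.56 ± 0.20, SE, adjusted p = 0.00045), Ipo11 at 2.54-fold (log2 difference 1.34 ± 0.38, SE, adjusted p = 0.024) and Ranbp3 at 2.19-fold (log2 difference 1.13 ± 0.20, SE, adjusted p = 0.0025). Nup50 was measured at 11441, 16372 and 12668 in resting NK cells and 5076, 4737, 3950.5 and 4359.7 in splenocytes, 2 groups far apart. Ranbp3 was measured at 4815, 3849 and 4934 and 1657, 2255, 1913.5 and 2517. Kpna6, Kpna4, Nupl1, Ipo8, Nup62, Kpna3, Nup153, Nup210, Nup214 and Nup93 were also higher, with log2 differences from 0.52 to 0.99. Calls in both directions depended on the probe set: with the second brightest set of each gene 6 were higher and 14 lower, and Nup50 then had a log2 difference of -0.45. Of the genes called lower, Ipo7 then had -0.02 and Xpo4 1.17, and Ranbp2 and Xpo1 did not pass. Of the 13 lower calls, 8 passed under all 17 alternatives, and Ipo7, Ranbp2, Tnpo2, Xpo1 and Xpo4 did not. Nup62, Nup93 and Ranbp3 were the higher calls that passed under all 17 alternatives. The alternatives that entered splenocyte chips as samples were less strict than the main test, with 30 to 32 members passing against 26.

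IL-15 NK cells were higher than splenocytes for 26 of the 52 genes tested and lower for 3, and 23 did not pass, against 44.3% of all 12465 genes tested (20.8% higher and 23.5% lower), and the median log2 difference was 0.68 against -0.10 over all genes. The split depended on the probe set: with the mean of all sets 22 were higher and 7 lower, among them Kpna1, which was higher on its brightest set, at -0.75 (adjusted p = 0.0044), and with the second brightest set 23 were higher and 6 lower. Of the 26 genes, 20 had another tested set, and in 4 of them another set passed as lower. The largest differences were those of Ipo11 at 5.08-fold (log2 difference 2.34 ± 0.38, SE, adjusted p = 0.0016), Ipo5 at 4.54-fold (log2 difference 2.18 ± 0.23, SE, adjusted p = 0.00015) and Nup54 at 4.22-fold (log2 difference 2.08 ± 0.52, SE, adjusted p = 0.013). Nup54 also had another tested set with a negative difference. Ipo11 signals were 9777, 5205 and 7936 in IL-15 NK cells and 1694, 1114, 1807 and 1317 in splenocytes, without overlap. The 3 lower genes were Ranbp10, Ranbp9 and Xpo7, at 4.29-fold, 2.53-fold and 1.70-fold (adjusted p = 4.0e-05, 0.00040 and 0.013). Ranbp10 signals in splenocytes were 13753, 14251, 14253 and 16395, and Ranbp9 signals were 3001, 3646 and 3004 in IL-15 NK cells and 7815, 7996.5, 7760.3 and 8837 in splenocytes. Both were apart from the NK arrays on every chip. Xpo7 was measured at 41153, 31907 and 32120.5 in IL-15 NK cells and 58849, 49982, 66169.9 and 63312 in splenocytes.

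The comparisons share arrays, so their values are given side by side and were not correlated. Rcc1 had a log2 difference from splenocytes of -1.46 at rest and 1.51 after IL-15, and Kpna2 of -1.76 and 0.81, both below splenocytes at rest and above them after IL-15. Nup43 (-2.11 and 0.49), Ipo7 (-1.62 and -0.13), Ranbp1 (-1.31 and 0.02), Xpo1 (-0.69 and -0.03), Xpo5 (-0.99 and -0.11) and Nup160 (-1.34 and -0.43) were lower at rest and did not pass after IL-15. For Ipo7 and Xpo1 the lower call at rest was lost with the second brightest probe set. Nup93 (0.52 and 2.05), Ipo11 (1.34 and 2.34) and Kpna3 (0.88 and 1.71) were higher than splenocytes in both states on their brightest probe sets. For Kpna3 at rest the direction turned with the probe set: the log2 difference was -0.58 (adjusted p = 0.045) with the second brightest set and -0.37 with the mean of all sets, and after IL-15 it was 0.21 and did not pass with the second brightest set. Ranbp10 was lower in both (-1.34 and -2.10).

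**Figure D5:**
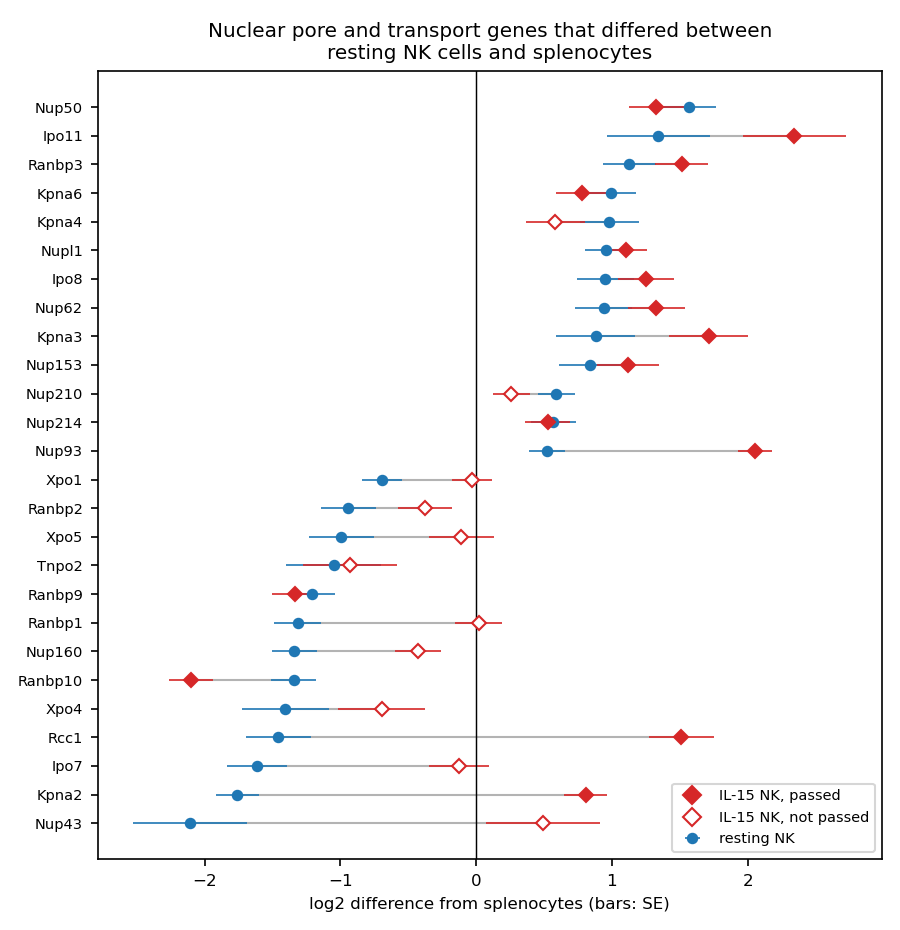
Log2 difference from splenocytes of resting NK cells (circles) and IL-15 NK cells (diamonds, filled where passed) for the 26 nuclear pore and transport genes that differed between resting NK cells and splenocytes; bars are standard errors. Rcc1 and Kpna2 cross from below 0 to above 0, and Ranbp10 moves further below.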

How the data were processed

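RNA of resting NK cells (3 arrays), IL-15 NK cells (3 arrays) and splenocytes (4 arrays, 2 chips for each of 2 biological samples) was measured on Affymetrix MOE430_2 arrays. The deposited values are linear signal intensities, 1 per probe set, and the submitters' processing notes name GCOS 1.4 as the software. How GCOS summarised and scaled the probes is not given in the sources used here. The trimmed mean (2% cut at each end) was 1500.01 on every array. No further scaling was applied in the main analysis. Of 45101 probe sets, 34945 had 1 gene symbol and 932 had several, which were left out. Intensities were raised to a floor of 179.85 (the median over arrays of the 40th percentile) and converted to log2. A gene was tested if 3 or more of the compared arrays exceeded the floor. Tests used limma 3.58.1 in R 4.3.3 (lmFit, eBayes with an intensity trend), 2-sided, with Benjamini-Hochberg adjustment over all genes tested and a threshold of 0.05, and the method was tested on simulated data. For splenocytes, which chips share a biological sample is unknown, so the chips were paired in all 3 ways, each pair was averaged, and a gene kept its largest p. Both splenocyte comparisons were fitted on all 3 groups with a shared variance, so the spread of the third group enters their standard errors and p-values. IL-15 against resting NK was fitted on the NK arrays only. The number of arrays limits the precision, and p-values reflect the spread between these samples.

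The members, lists and tests were chosen with earlier results of these data known. Genes described by rule were Kpnb1, Ran, Rangap1, Rcc1, Cse1l, Xpo1, Ranbp1, Ranbp2 and Kpna2. To these were added, in each role, up to 3 genes that passed with the largest differences each way after IL-15, and up to 3 genes each way in each splenocyte comparison. Of the other pathway lists, up to 2 genes each way were described. Seh1l, Sec13, Ahctf1, Rae1, Pom121 and Gle1 are named outside this rule, after their values were seen. The remaining members are named to account for all of them, after their values were seen. Alternatives were the floor (20th or 60th percentile), no filter, quantile or median scaling, other probe set choices, no intensity trend, the replicate number as a block, chips as samples and leaving out each array. Leaving out probe sets of the _x_at and _s_at kinds was added after seeing the data.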

Additional observations from a re-analysis of the deposited data

Results flagged for a closer look

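Nup37, a Y complex gene, had 1 splenocyte chip far from the others. On chip 2 its log2 signal was 11.65, against 10.93 to 11.02 on the other 3 chips, and the gap was 0.877 of the whole range of the group, above the critical value of Dixon's test for 4 values. Chance marks about 1 in 20 groups of independent values in this way, and 52 members were checked. The 4 chips came from 2 biological samples, so this rate does not strictly hold for them. Nup37 did not pass between resting NK cells and splenocytes and was higher in IL-15 NK cells with this chip included.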

How the results depend on the processing

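With IL-15 against resting NK, 24 of the members passed, and the count lay between 16 and 27 over the 10 alternatives that kept all arrays. Leaving out 1 array in turn gave 15 to 24 members, 8 to 17 of the other pathway genes (14 with all arrays) and 1963 to 3241 of all genes (3003). The lowest member count came without IL-15 NK replicate 1, and the lowest counts of the others without IL-15 NK replicate 3. With every gene tested, 7 other pathway genes and 1646 of all genes passed. For resting NK against splenocytes (26 members), leaving out 1 array gave 23 to 32 members, 11 to 17 other pathway genes and 4441 to 6008 of all genes. The ranges were 26 to 35, 12 to 18 and 4616 to 6454 when IL-15 NK cells (29 members) were set against splenocytes. With a splenocyte chip left out, the other 3 were entered as samples. Of the other pathway genes, 6 passed with the mean of all probe sets and 8 with the second brightest set for resting NK against splenocytes (14 with the brightest), and 9 and 6 for IL-15 NK against splenocytes (14 with the brightest). Quantile scaling moved the median log2 difference of all genes from -0.06 to 0.05 and from -0.10 to 0.11 in the splenocyte comparisons, where 14 members were then higher and 12 lower, and 27 higher and 5 lower. It moved the split of all calls to 3051 higher and 2329 lower for IL-15 NK against splenocytes, from 2596 and 2928.

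The sign changes listed here came with another choice of probe set, which replaces the measured sequence. Signs of differences near 0 could also turn with scaling. The members' median log2 difference, resting NK against splenocytes, was -0.01 in the main analysis and 0.04 with median scaling. After IL-15, the second brightest set gave log2 differences of -0.40 for Ipo11, -0.21 for Ipo7, 0.99 for Kpna6, 1.14 for Tnpo3 (1.14 also without _x_at and _s_at sets) and 1.03 for Xpo7. For resting NK against splenocytes it gave -0.18 for Ipo8, -0.58 for Kpna3, -0.16 for Kpna4, -0.61 for Kpna6, -0.45 for Nup50, 0.98 for Nup85, -0.21 for Nupl1 (-0.21 also without _x_at and _s_at sets), -0.78 for Rangap1 and 1.17 for Xpo4. For IL-15 NK against splenocytes it gave -0.99 for Ipo8, -0.46 for Kpna1 (-0.46 also without _x_at and _s_at sets), -0.24 for Nup50, 1.56 for Tnpo1 and 1.17 for Xpo4. The mean of all probe sets gave -1.38 for Kpna1, -0.37 for Kpna3 and -0.14 for Nupl1 in resting NK against splenocytes, and -0.051 for Ipo8 and -0.75 for Kpna1 in IL-15 NK against splenocytes.

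The series' design speaks of 3 pairs of NK samples without tying them to the replicate numbers. Deviations of same-numbered resting and IL-15 arrays from their group means correlated at 0.103, 0.281 and 0.0665 over 11433 genes, so the numbers were not taken as pairs. With the replicate number as a block, 26 members (25 higher and 1 lower), 16 other pathway genes and 3421 of all genes passed.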

Other observations

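The nuclear lamina and inner nuclear membrane, on which the pores are anchored, were also measured. Of 11 genes listed for them, 6 rose after IL-15, none fell and 5 did not pass (limma, adjusted over all genes tested), with a median log2 difference of 1.20 against -0.09 over all genes tested, of which 14.2% rose. Lmna, which encodes the A-type lamins, had signals of 855.7, 1230.2 and 550.2 in resting NK, 3772, 4403 and 5697 in IL-15 NK and 1398, 1671, 1323 and 2032 in splenocytes. The IL-15 arrays lay above both other groups, and the rise over resting was 5.47-fold (adjusted p = 0.00043). Banf1, which tethers chromatin to the envelope, rose 3.50-fold (adjusted p = 0.00031), and its IL-15 signals of 10214, 13672 and 11253 overlapped the splenocyte range of 10718 to 14646. Lmnb2, Tmpo, Lmnb1 and Emd rose 3.48-fold, 2.53-fold, 2.43-fold and 2.30-fold. Lbr, Lemd3, Sun1, Sun2 and Tor1aip1 did not pass, with log2 differences from -0.67 (Sun2) to 0.13 (Lemd3). Against splenocytes, 4 of the 11 were lower in resting NK cells (Banf1, Lmnb1, Tmpo and Tor1aip1) and none was higher. Over all genes tested in that comparison, 21.5% were lower and 17.1% higher.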
